A study of Equus caballus with 18 samples.

Results

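Gene expression in the synovial fluid of 6 horses 7 days after a corticosteroid was injected into a joint was set against baseline fluid, taken before the injection, on an Affymetrix equine gene array. The comparison took the 12 of 18 array columns that the labels name Day 7 or Baseline, paired by horse, and described all 16661 genes that have a probe set with exactly 1 gene symbol, out of 30559 probe sets. Values are log2 expression values, in which a difference of 1 is a 2-fold change.

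The day 7 group is fluid taken 7 days after 8 mg of isoflupredone acetate, a synthetic corticosteroid, was placed in the right antebrachiocarpal joint, the upper joint of the carpus, and the baseline group is fluid of the same horses before it. All were exercised adult Thoroughbreds, and the design text gives ages of 4 to 8 years for the study's 12 horses, 6 geldings and 6 mares. Saline-injected joints are not analysed here. The horses were let out to exercise freely 2 days after a fluid collection and returned to their usual exercise on day 3, so effects of the drug, of the injection, of repeated sampling and of exercise cannot be told apart in these samples. Fluid of the same 6 horses at 24 h after the injection is used for a few side by side values. Horses are called 1 to 6 here, in the order of the samples.

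Synovial fluid is made by the lining of the joint, and its cells at rest are mostly macrophages and lymphocytes, with few neutrophils. Corticosteroids bind the glucocorticoid receptor, a transcription factor that represses many inflammatory genes and induces others, and they are known to turn monocytes and macrophages towards the uptake of dying cells and of haemoglobin. Lining macrophages clear debris from the joint and are set apart from newly arrived monocytes by receptors such as TIMD4, VSIG4 and LYVE1. In fluid measured in bulk, fewer cells of a type and less RNA per cell cannot be told apart, and no cell counts were used here.

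The day 7 columns of horses 1 and 2 matched exactly at 99.3% of probe sets, and the 212 probe sets that differed include 0 with a single gene symbol. They were averaged and counted as 1 array, so that day 7 has 5 arrays and baseline 6, and the labels do not settle from which horse the array came. The small number of arrays limits the precision of every value. Day 7 values below are given in the order merged array, horse 3, horse 4, horse 5 and horse 6. The merged array moved least from its own baseline. On it 8.27% of genes differed by over 2-fold from the mean of both horses' baseline arrays, against 31.3%, 26.6%, 37.4% and 26.5% for horses 3 to 6 from their single baseline array. In 33 of the 43 gene lists described here the median change was closest to 0 on the merged array.

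The arrays of day 7 also held a wider range of values than those of baseline. The SD over the probe sets of an array was 1.70 ± 0.119 at day 7 (mean ± SD, n = 5 arrays) and 1.37 ± 0.0931 at baseline (n = 6), with a mean paired difference of 0.335, and it was higher at day 7 in 5 of 5 pairs (exact two-sided sign-flip test, at the smallest p that 5 pairs allow, which is above 0.05). Changes followed brightness. Probe sets were split into 4 equal classes by mean value over all 17 arrays. The median change of genes in them ran -0.44, -0.26, 0.04 and 0.75, dimmest class first. That mean includes the day 7 arrays, so a rise moves a gene towards a brighter class and a fall towards a dimmer one. How much of the trend comes from this was not tested. The classes held 2070, 4666, 5279 and 4646 genes. Genes called higher numbered 1, 170, 878 and 1958 in these classes, and genes called lower 420, 470, 370 and 145. What part the spread of the arrays has in each change below was not tested gene by gene; a fit with that SD as a covariate called 0 probe sets (limma, 1926 with an unadjusted p under 0.05), and the SD and the time move together. In that fit the changes of 35 of the 173 named genes and the medians of 12 of the 43 lists changed sign. This list count takes only lists whose median exceeded the SD of their medians over the 5 day 7 arrays. Some medians within that SD turned too, among them that of cytosolic ribosomal proteins, from 0.75 to -0.75.

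**Figure D1:**
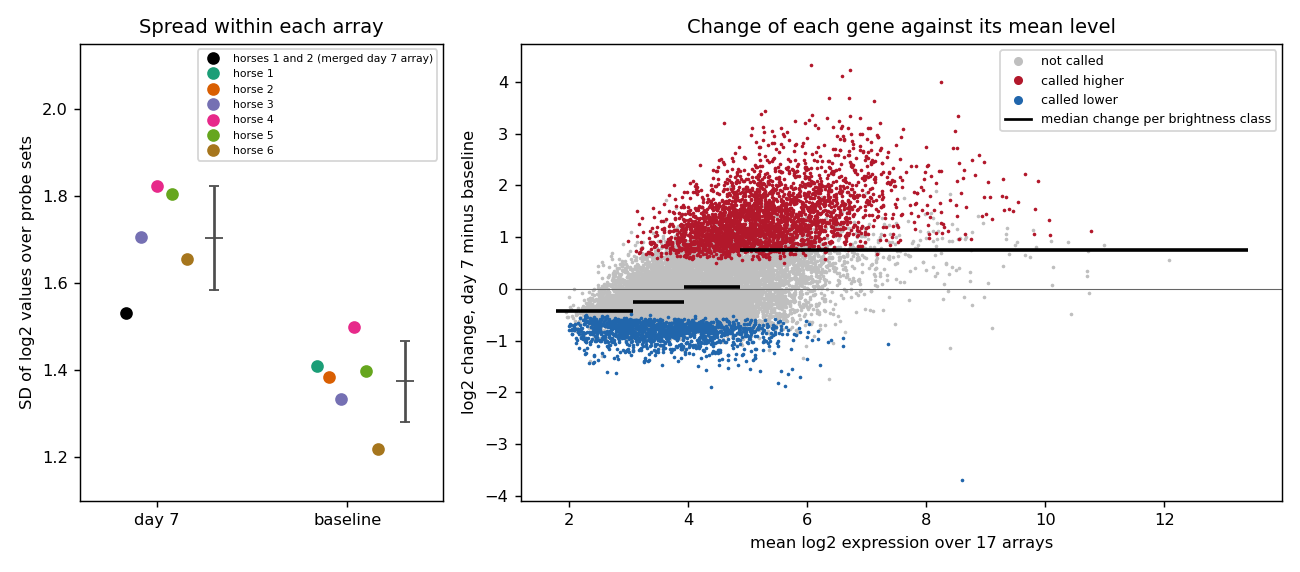
Left, the SD of the log2 values of all probe sets on each array, for the 5 day 7 arrays and the 6 baseline arrays, with the mean and SD of each group as bars. Right, the log2 change of each gene (day 7 minus baseline) against its mean log2 expression over 17 arrays, with genes called higher in red, called lower in blue and others in grey, and black lines at the median change of each brightness class. All 5 day 7 arrays lie above all baseline arrays on the left, from 1.53 upwards against at most 1.50, and on the right most genes called higher are bright.

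Which genes differed 7 days after the injection was tested with limma within horses, with Benjamini-Hochberg adjustment over all probe sets, and a probe set with an adjusted p under 0.05 was called. It called 8343 of 30559 probe sets (27.3%), and 13325 had an unadjusted p under 0.05. Of the genes, 4412 of 16661 were called (26.5%), 3007 higher (18%) and 1405 lower (8.43%). Rises were larger than falls. Of the genes called higher 2300 had risen by over 2-fold, 401 by over 4-fold and 37 by over 8-fold, while of those called lower 254 had fallen by over 2-fold and 1 by over 4-fold. The median change over all genes was -0.04. The values of the 5 day 7 arrays and the 6 baseline arrays did not overlap at all in 1524 genes (9.15%), 902 of them higher (5.41%) and 622 lower (3.73%). The count of called probe sets depended on single libraries: it was 2362, 3953, 1761 and 4520 without horses 3, 4, 5 and 6. Leaving out the day 7 array of horse 3, 4 or 5 gave 2577, 4008 and 2541, while leaving out the baseline array of horse 2, 5 or 6 gave 4476, 5189 and 4816. After quantile normalization, which gives all arrays the same distribution, 1304 genes were called higher and 413 lower.

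The genes were read against 30 lists of pathways and 13 lists of cell type markers. The highest medians belonged to lysosomal hydrolases and membrane proteins (2.34), monocyte or macrophage markers (2.17), resident lining macrophage markers (1.99), proton pump subunits (1.87) and chaperones (1.64). At the other end stood markers of NK or cytotoxic cells (-0.67), of B or plasma cells (-0.51) and of T cells (-0.51), and structural matrix genes (-0.37). List members given with a change alone, without a standard error, were picked out after their values were seen. Each list count below is to be read against the 18% of all genes called higher and the 8.43% called lower. These shares depended on brightness, and the lists were not matched for it. Brightness here includes the day 7 arrays, so it is not independent of the changes. In the brightest class 1958 of 4646 genes were called higher and 145 lower, and in the dimmest 1 of 2070 higher and 420 lower.

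**Figure D2:**
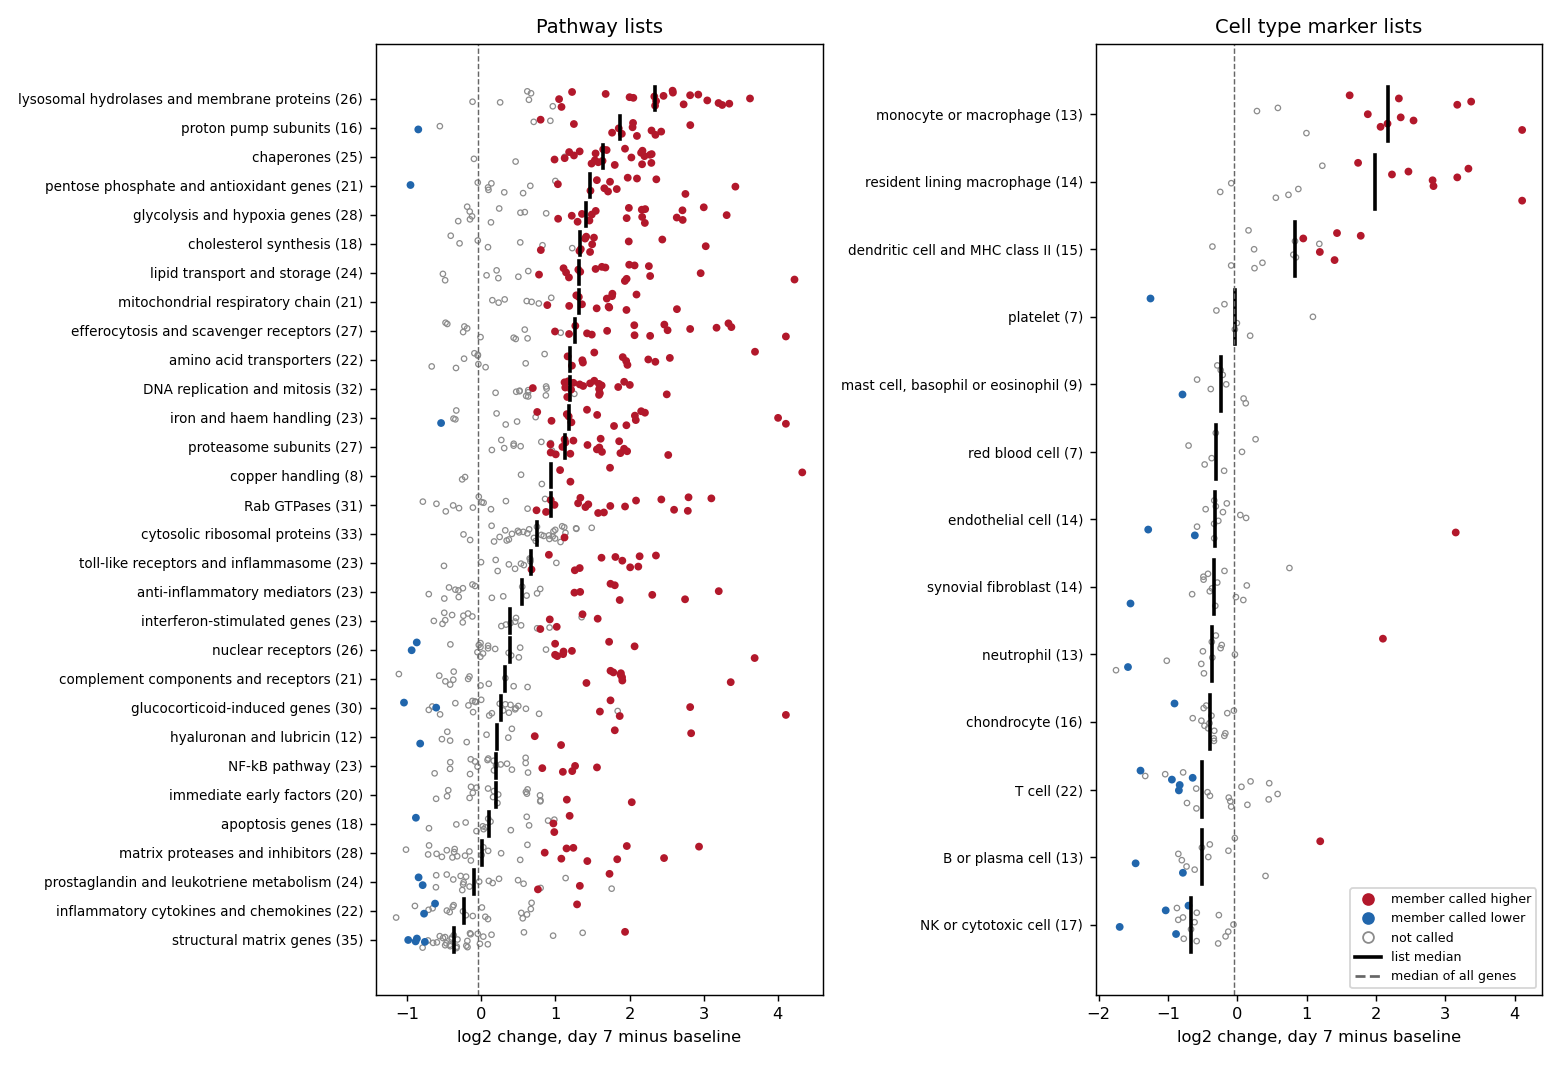
Each point is a member of a gene list at its log2 change (day 7 minus baseline), red where called higher, blue where called lower and open where not called, with pathway lists on the left and cell type lists on the right; the number of measured members is in brackets. A black bar marks each list's median and the dashed line the median of all genes, -0.04; lysosomal genes have a median of 2.34 and NK or cytotoxic markers one of -0.67.

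The largest rises were in genes of copper, lipid and haem handling. Those of SLC31A1, ABCA6, CD163 and HMOX1 were the largest 4 of all genes called with the same sign on all 5 day 7 arrays. CD163, the receptor by which macrophages take up haemoglobin bound to haptoglobin, read 6.60, 7.57, 8.39, 7.57 and 9.41 at day 7, against 3.15 to 4.18 (median 3.59) at baseline. HMOX1, the inducible enzyme that breaks down haem, read 9.04, 9.30, 10.98, 10.74 and 10.33 at day 7, against 5.56 to 6.38 (median 5.97) at baseline. The groups lay far apart for both genes: the change was 4.11 ± 0.39 (log2, SE, adjusted p = 0.000345) for CD163, or 17.3-fold, and 4.00 ± 0.47 (adjusted p = 0.00173) for HMOX1, or 16-fold. The merged array was the lowest at day 7 for both. SLC31A1, the high-affinity importer of copper, read 6.31, 8.38, 9.49, 9.26 and 8.59 at day 7, against 3.34 to 4.97 (median 3.81) at baseline, a change of 4.33 ± 0.53 (adjusted p = 0.00195).

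Other members of the 15 largest rises came from several pathways. SLC7A8, a transporter of neutral amino acids, read 7.10, 8.17, 9.64, 9.29 and 8.85 at day 7, against 4.11 to 5.47 (median 4.97) at baseline. AHR, the aryl hydrocarbon receptor, a ligand-activated transcription factor, read 7.08, 8.87, 9.27, 9.23 and 7.65 at day 7, against 4.16 to 5.47 (median 4.42) at baseline. Both kept their groups apart, with changes of 3.69 ± 0.57 (log2, SE, adjusted p = 0.00393) for SLC7A8 and 3.69 ± 0.60 (adjusted p = 0.00456) for AHR. EMP1, a tetraspan membrane protein, rose by 3.30 ± 0.61 without overlap, and CPM, a membrane carboxypeptidase of macrophages, by 3.26 ± 0.62, where the merged array at 5.69 lay just under the highest baseline array at 5.74. Day 7 and baseline did not overlap in 13 of the 15 largest rises, TIMD4 and CPM being the exceptions. Of all genes, 5.41% were higher without overlap. The 15 were picked for large changes of the same sign on all 5 day 7 arrays, so their separation follows in part from the pick.

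**Figure D3:**
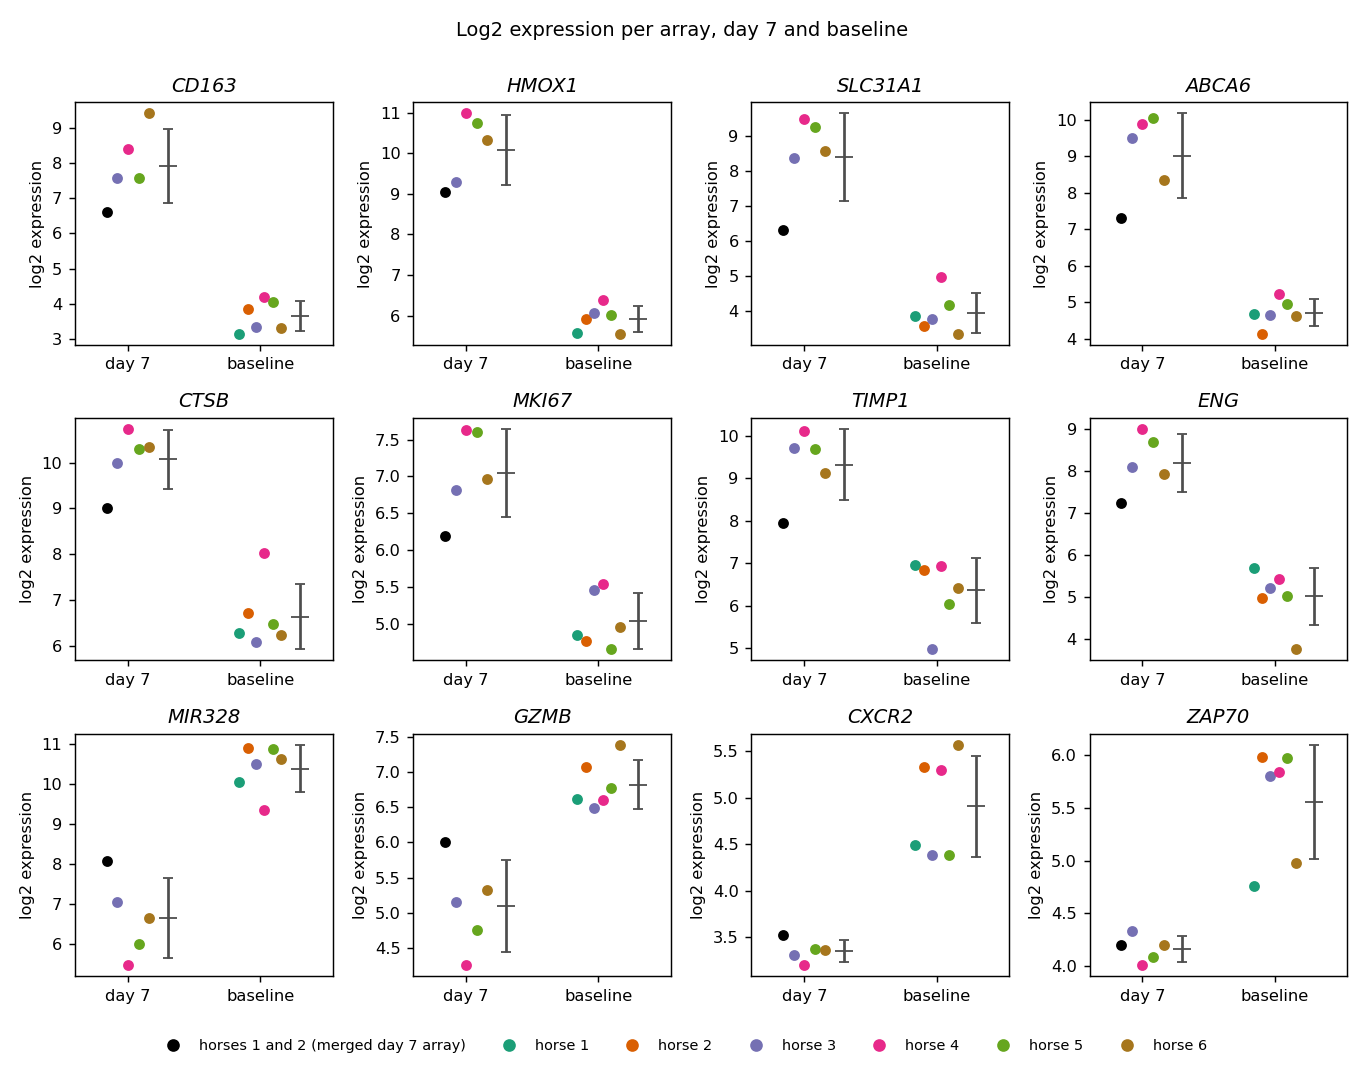
Log2 expression of 12 genes on every array, day 7 on the left and baseline on the right of each panel, coloured by horse, with black for the merged day 7 array of horses 1 and 2 and bars for the mean and SD (n = 5 arrays at day 7, 6 at baseline). The 8 genes from CD163 to ENG are higher and the 4 from MIR328 to ZAP70 lower at day 7, without overlap between the groups.

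Markers of macrophages rose as a group. Of 13 measured monocyte or macrophage markers 10 rose and 0 fell, with a median change of 2.17, against -0.04 over all genes. Their mean level per array lay between 6.26 and 8.02 at day 7, against 4.67 to 6.22 at baseline. Of 14 measured markers of resident lining macrophages 8 rose and 0 fell, with a median of 1.99 and a mean level per array between 5.80 and 7.50 at day 7, against 4.56 to 5.27 at baseline. The lists share CD163 and MRC1. SIRPA, the receptor that reads the CD47 signal of living cells, read 7.90, 8.57, 8.93, 8.55 and 7.86 at day 7, against 4.94 to 7.38 (median 5.90) at baseline, and changed by 2.33 ± 0.31 (log2, SE, adjusted p = 0.00204). CD68, a lysosomal glycoprotein of macrophages, rose by 2.07 ± 0.36, though its merged array at 8.92 lay just within the baseline range, which ended at 8.93. Members that were not called were LYZ (0.28), AIF1 (1.00) and MARCO (0.59) of the first list, and CX3CR1 (0.56), TREM2 (1.23), GAS6 (-0.25), MAF (-0.09), IGF1 (0.88) and F13A1 (0.74) of the second. The counts were 9 and 8 after quantile normalization, and at least 8 and 7 when any horse or array was left out. These markers rose on the same arrays as the gene groups that follow, and their part in those changes was not tested.

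The receptors with which phagocytes bind dying cells were among the genes that rose. Of 27 measured genes of efferocytosis and scavenging 16 rose and 0 fell, with a median of 1.27. MSR1, the class A scavenger receptor, read 5.85, 7.65, 7.86, 6.99 and 7.31 at day 7, against 2.83 to 4.24 (median 3.77) at baseline, a change of 3.37 ± 0.55 (log2, SE, adjusted p = 0.00448). MERTK, a receptor kinase that binds phosphatidylserine on dying cells through bridging proteins, read 5.96, 6.30, 7.48, 6.49 and 6.79 at day 7, against 3.10 to 4.09 (median 3.79) at baseline, a change of 2.82 ± 0.38 (adjusted p = 0.00209). STAB1, which clears aged cells and modified proteins, read 7.79, 6.95, 8.35, 7.43 and 7.36 at day 7, against 4.68 to 5.44 (median 5.06) at baseline, a change of 2.47 ± 0.47 (adjusted p = 0.00698). None of these 3 genes had an array of one group within the range of the other. TIMD4, which binds phosphatidylserine directly on resident macrophages, rose by 3.33 ± 0.61 (adjusted p = 0.00644), and baseline horse 4 at 7.50 lay above the merged day 7 array at 6.86. The bridging proteins GAS6 (-0.25), PROS1 (-0.23) and MFGE8 (-0.19) and the other receptor kinases of the MERTK family, AXL (0.46) and TYRO3 (-0.48), were not called. The count was 12 after quantile normalization and 9 without horse 5, the lowest of the fits that leave out a horse or array.

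Genes of iron and haem handling rose with CD163 and HMOX1. Of 23 measured members 15 rose and 1 fell, with a median of 1.18. NCOA4, the receptor that delivers ferritin to the lysosome, read 5.52, 5.92, 7.04, 6.59 and 6.36 at day 7, against 3.57 to 4.95 (median 4.09) at baseline, and rose by 2.07 ± 0.26 (log2, SE, adjusted p = 0.00195). FTL, the ferritin light chain that stores iron, read 10.27, 10.73, 11.25, 11.21 and 10.60 at day 7, against 7.90 to 9.52 (median 8.62) at baseline, and rose by 2.08 ± 0.33 (adjusted p = 0.00448). Neither had overlapping groups. The member that fell was CP, which encodes the ferroxidase ceruloplasmin (-0.54), and SLC40A1, the iron exporter ferroportin, was not called at 0.21. The count of rises was 8 after quantile normalization and lowest, at 7, without horse 5. Among 8 measured genes of copper handling 4 rose: SLC31A1, SLC31A2, its lower-affinity relative (1.06 ± 0.27), ATP7A, a copper-pumping ATPase (1.20 ± 0.30), and SOD1, the copper-zinc superoxide dismutase (1.74 ± 0.52). SLC31A1 alone remained called without horse 5 or without its day 7 array.

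Lipid genes followed the same direction. Of 24 measured genes of lipid transport and storage 17 rose and 0 fell, with a median of 1.32, and of 18 genes of cholesterol synthesis 11 rose and 0 fell, with a median of 1.33. ABCA6, a lipid transporter of the ABC family, read 7.30, 9.50, 9.87, 10.03 and 8.34 at day 7, against 4.14 to 5.23 (median 4.67) at baseline, and its relative ABCA9 read 4.72, 4.73, 6.65, 5.99 and 5.46 at day 7, against 2.99 to 4.26 (median 3.30) at baseline. Both pairs of groups stood apart, with changes of 4.22 ± 0.64 for ABCA6 (log2, SE, adjusted p = 0.00354) and 1.96 ± 0.25 for ABCA9 (adjusted p = 0.00195). ABCA1, which exports cholesterol to apolipoprotein A-I, rose by 1.94 ± 0.34 (adjusted p = 0.00579), and PNPLA2, the lipase that opens the breakdown of stored triglyceride, by 2.26 ± 0.31 (adjusted p = 0.00209), both without overlap.

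In cholesterol synthesis, NSDHL, an enzyme of its late steps, read 6.47, 7.66, 7.57, 7.38 and 6.99 at day 7, against 4.64 to 5.69 (median 5.23) at baseline, a change of 1.99 ± 0.37 (log2, SE, adjusted p = 0.00676). SCAP, the escort that carries the sterol-sensing transcription factors to the Golgi, rose by 1.40 ± 0.27 (adjusted p = 0.00712). SREBF2, one of those factors, rose by 1.42 ± 0.34 with overlap, and INSIG1, which holds SCAP back when sterols are plentiful, by 3.03 ± 0.76 without overlap. The day 7 arrays of INSIG1 were uneven, at 5.42, 8.67, 8.67, 7.56 and 6.76. The call of SREBF2 was lost without horses 3 or 5 and without the day 7 array of horse 3 (adjusted p up to 0.0599), and that of INSIG1 without horses 4 or 5 and without the day 7 arrays of horses 3 or 5 (adjusted p up to 0.0738). Counts after quantile normalization were 12 for transport and storage and 5 for synthesis. They were lowest without horse 5, at 8 and 2, and the synthesis count was also 2 without the day 7 array of horse 3.

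The lysosome had the highest median of all lists. Of 26 measured lysosomal hydrolases and membrane proteins 20 rose and 0 fell, with a median of 2.34. LGMN, the asparagine-specific protease legumain, read 7.81, 7.86, 9.79, 9.23 and 8.05 at day 7, against 4.17 to 6.87 (median 5.57) at baseline, a change of 2.93 ± 0.32 (log2, SE, adjusted p = 0.00116). CTSB, the protease cathepsin B, read 9.01, 9.99, 10.73, 10.29 and 10.33 at day 7, against 6.08 to 8.02 (median 6.38) at baseline, a change of 3.35 ± 0.38 (adjusted p = 0.00138). GPNMB, a glycoprotein of macrophage lysosomes, read 7.42, 6.66, 9.34, 9.08 and 9.42 at day 7, against 3.58 to 6.09 (median 4.51) at baseline, a change of 3.62 ± 0.53 (adjusted p = 0.00314). In all 3 the groups stood apart, though baseline horse 4 was well above the other baseline arrays for CTSB. TPP1, a peptidase of the lysosome, rose by 2.58 ± 0.34 (adjusted p = 0.00205) without overlap. The cathepsin genes CTSL (-0.12) and CTSK (0.25), CTSK being known from osteoclasts, were not called, nor was TFEB, a transcription factor of lysosomal genes (0.62). The count was 16 after quantile normalization and lowest, at 15, without horse 5.

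The proton pump that acidifies the lysosome, and the Rab GTPases that direct vesicle traffic, were read beside it. Of 16 measured pump subunits 12 rose and 1 fell, with a median of 1.87. ATP6V0C, which forms the membrane ring of the pump, read 8.31, 9.62, 10.33, 10.45 and 9.72 at day 7, against 6.18 to 8.50 (median 7.20) at baseline, a change of 2.43 ± 0.41 (log2, SE, adjusted p = 0.00493). Here the merged array lay within the baseline range, and the other 4 day 7 arrays lay above it. ATP6V0D1 rose by 2.30 ± 0.38, ATP6V1D by 2.05 ± 0.37 and ATP6V0B by 1.76 ± 0.31. The subunit that fell was ATP6V0D2 (-0.85), a form known from osteoclasts, and ATP6V1B1, a form of kidney, was at -0.56 without a call. Of 31 listed Rab genes 18 rose and 0 fell, with a median of 0.94. RAB42, which is not on the list, fell (-1.54 ± 0.26) and is given with the largest falls. RAB7A, the Rab of late endosomes, read 7.24, 9.22, 9.78, 9.44 and 8.30 at day 7, against 4.65 to 7.01 (median 5.64) at baseline, a change of 3.10 ± 0.54 (adjusted p = 0.00569). RAB5C of early endosomes rose by 2.43 ± 0.44, RAB1A of traffic from endoplasmic reticulum to Golgi by 2.60 ± 0.33 and RAB35 by 1.44 ± 0.27, all without overlap. After quantile normalization 9 subunits and 9 Rab genes rose, and without horse 5, which gave the lowest counts, 7 and 8.

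Genes of sugar breakdown rose through most of the pathway. Of 28 measured genes of glycolysis and hypoxia 18 rose and 0 fell, with a median of 1.41. LDHA, which makes lactate, read 7.38, 9.26, 9.08, 9.36 and 8.80 at day 7, against 4.52 to 6.80 (median 5.10) at baseline, a change of 3.31 ± 0.65 (log2, SE, adjusted p = 0.00755). PGK1, an ATP-forming step, read 6.20, 7.30, 7.82, 7.75 and 7.40 at day 7, against 3.95 to 5.89 (median 5.07) at baseline, a change of 2.16 ± 0.39 (adjusted p = 0.00579). Groups did not overlap in either gene, nor in HK1, the hexokinase that opens the pathway (2.17 ± 0.40), GPI (1.96 ± 0.35) or PFKP (1.54 ± 0.25), which act on the next steps. HK2 (-0.12), PFKM (-0.16), ENO2 (-0.15), SLC2A1 (0.24), VEGFA (-0.19) and CA9 (-0.31), the last a classical hypoxia gene, were not called. The count was 12 after quantile normalization and lowest, at 8, without horse 5.

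Of 21 measured genes of the pentose phosphate pathway and antioxidant defence 12 rose and 1 fell, with a median of 1.47. PGD, which yields NADPH in the pentose phosphate pathway, read 5.53, 7.84, 8.16, 7.60 and 6.65 at day 7, against 2.55 to 4.81 (median 3.49) at baseline, a change of 3.43 ± 0.48 (log2, SE, adjusted p = 0.00249). TKT, of the same pathway, rose by 2.36 ± 0.38 (adjusted p = 0.00448), catalase (CAT), which removes hydrogen peroxide, by 2.75 ± 0.37 (adjusted p = 0.00209) and TXNRD1, which uses NADPH to reduce thioredoxin, by 1.98 ± 0.27 (adjusted p = 0.00249). None of these 4 had overlapping groups. The gene that fell was PRDX2, a peroxiredoxin abundant in red cells (-0.96). NQO1 (0.09), GCLM (0.31) and SLC7A11 (-0.05), which the oxidant sensor NFE2L2 is known to induce, were not called, while NFE2L2 itself rose (1.66). The count of rises was 8 after quantile normalization and lowest, at 6, without horse 5. The falls of PRDX2, CP and ATP6V0D2 were not called without horse 3, 4 or 5, among others.

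Of 21 measured genes of the mitochondrial respiratory chain 14 rose and 0 fell, with a median of 1.32. ATP5F1B, the catalytic subunit of ATP synthase, read 7.87, 9.55, 9.79, 9.57 and 8.50 at day 7, against 5.60 to 7.39 (median 6.35) at baseline, a change of 2.64 ± 0.50 (log2, SE, adjusted p = 0.00683) without overlap. UQCRC2 (2.09 ± 0.41) and UQCRFS1 (1.77 ± 0.36) of complex III and COX5B (1.72 ± 0.35) of complex IV rose as well, and for each of them the merged array alone lay within the baseline range. The count was 6 after quantile normalization and lowest, at 4, without horse 5.

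Protein folding and breakdown moved with them. Of 25 measured chaperone genes 22 rose and 0 fell, with a median of 1.64, and of 27 proteasome subunits 18 rose and 0 fell, with a median of 1.12. CCT3, a subunit of the ring that folds actin and tubulin, read 4.91, 5.99, 5.83, 5.89 and 5.49 at day 7, against 2.57 to 3.99 (median 3.33) at baseline, a change of 2.29 ± 0.37 (log2, SE, adjusted p = 0.00448). TCP1, of the same ring, rose by 1.94 ± 0.37, CCT4 by 1.58 ± 0.36 and CCT7 by 1.53 ± 0.34. DNAJB1, a co-chaperone that heat shock induces strongly, was not called at -0.10. PSMA1, of the core of the proteasome, read 4.56, 6.37, 6.99, 7.43 and 6.54 at day 7, against 3.51 to 4.58 (median 3.63) at baseline, a change of 2.52 ± 0.50 (adjusted p = 0.00758) with the merged array just below the highest baseline array. PSMD2 rose by 1.61 ± 0.31, PSMA6 by 1.63 ± 0.33 and PSMD1 by 1.86 ± 0.42. The subunits that interferon induces, PSMB8 (0.53), PSMB9 (0.44) and PSMB10 (0.14), were not called. Both lists depended strongly on a single horse: without horse 5, 2 chaperones and 3 proteasome subunits were called, and after quantile normalization 13 and 5.

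Cytosolic ribosomal proteins had a median of 0.75, the same as the median of the brightest class of genes (0.75), and 1 of 33 rose, RPL32 (1.11 ± 0.32, adjusted p = 0.0251). RPL32 was lower at day 7 than its own baseline on 1 of the 5 arrays. Between 0 and 14 members were called over the fits that left out a horse or an array, and the median after quantile normalization was 0.22. Of 22 amino acid transporters 12 rose and 0 fell, with a median of 1.19. SLC3A2, the heavy chain shared by several of these transporters, read 6.80, 7.55, 8.40, 7.88 and 7.90 at day 7, against 3.97 to 6.38 (median 5.58) at baseline, a change of 2.25 ± 0.36 (log2, SE, adjusted p = 0.00448). SLC43A2, a transporter of large neutral amino acids, rose by 2.54 ± 0.42 (adjusted p = 0.00477), and SLC38A7, a glutamine and asparagine transporter of the lysosome, by 1.95 ± 0.34 (adjusted p = 0.0055), both without overlap. SLC7A5 (0.85), the light chain most often paired with SLC3A2, was not called. The transporter count was 7 after quantile normalization and lowest, at 8, in 5 of the fits that leave out a horse or array, among them those without horse 3 or horse 5.

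Among 26 measured nuclear receptors and their partners 9 rose and 2 fell, with a median of 0.39. PPARG, which drives lipid uptake and storage in macrophages, read 4.85, 6.09, 6.99, 6.16 and 5.18 at day 7, against 3.51 to 3.89 (median 3.72) at baseline, a change of 2.07 ± 0.39 (log2, SE, adjusted p = 0.00676) without overlap. VDR, the vitamin D receptor, rose by 1.72 ± 0.39 without overlap and NR2C2 by 1.22 ± 0.28 with it. NR2F2 (-0.94), known from stromal and endothelial cells, and RXRG (-0.87), a retinoid X receptor, fell. Without horse 5, 2 members were called higher, VDR (adjusted p = 0.0559) and NR2C2 (adjusted p = 0.0628) no longer among them, and after quantile normalization 2 were called higher and 0 lower. Neither fall was called without horse 3, 4 or 6 or the day 7 array of horse 3.

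Genes of DNA replication and mitosis were higher at day 7. Of 32 measured members 20 rose and 0 fell, with a median of 1.19. MKI67, a nuclear protein of cycling cells, read 6.20, 6.82, 7.63, 7.60 and 6.97 at day 7, against 4.66 to 5.55 (median 4.91) at baseline, a change of 2.00 ± 0.40 (log2, SE, adjusted p = 0.00824), or 4.01-fold. CCNA2, the cyclin of S phase and of entry into mitosis, read 4.40, 5.86, 7.09, 7.91 and 6.09 at day 7, against 2.96 to 4.54 (median 3.68) at baseline, a change of 2.50 ± 0.50 (adjusted p = 0.00791). PLK1, a kinase of mitosis, rose by 1.47 ± 0.26 (adjusted p = 0.00572), and CCNB2, a mitotic cyclin, by 1.60 ± 0.33 (adjusted p = 0.00849). Groups did not overlap for MKI67, PLK1 and CCNB2, while for CCNA2 the merged array lay within the baseline range. CDK1 (0.52), CDK2 (0.52), CCNE1 (0.19) and CDC20 (0.47) were not called. The count was 16 after quantile normalization and lowest, at 5, without horse 5.

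At day 7 glucocorticoid-induced genes were called about as often as all genes, of which 18% were called higher and 8.43% lower. Of 30 measured members 5 rose, CD163, MERTK, ANXA1, VSIG4 and FKBP5, and 2 fell, TFCP2L1 (-1.04 ± 0.20) and MAOA (-0.61). The median was 0.27 as deposited, between 0.12 (without the day 7 array of horse 5) and 0.43 (without the baseline array of horse 2) with a horse or array left out, and 0.00 after quantile normalization, where 5 rose and 1 fell. Without horse 3, 4, 5 or 6, among others, 1 fall was called. FKBP5, a co-chaperone that dampens the receptor and is itself induced by it, read 5.38, 6.01, 6.20, 6.02 and 8.19 at day 7, against 4.01 to 5.31 (median 4.62) at baseline, a change of 1.60 ± 0.37 (log2, SE, adjusted p = 0.0122) without overlap, with horse 6 well above the other 4 arrays. ANXA1, which encodes the anti-inflammatory protein annexin A1, read 7.30, 8.20, 7.74, 7.83 and 7.48 at day 7, against 5.32 to 6.76 (median 5.72) at baseline, a change of 1.87 ± 0.39 (adjusted p = 0.00916), also without overlap. VSIG4, a complement receptor of resident macrophages, rose by 1.74 ± 0.40. Not called were TSC22D3, the glucocorticoid-induced leucine zipper (-0.12 ± 0.38), the clock gene PER1 (0.50 ± 0.39), the phosphatase gene DUSP1 (0.14 ± 0.54) and the transcription factor genes ZBTB16 (0.00 ± 0.39) and KLF9 (0.46 ± 0.32). NR3C1, the receptor itself, was at 0.87 ± 0.42 (adjusted p = 0.126). The signs of TSC22D3, DUSP1 and ZBTB16 turned under some alternatives. Those of KLF9 (-0.23) and NR3C1 (-0.78) turned in the fit with the array SD as a covariate.

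The values of these genes at 24 h, read against the same baseline arrays, are given side by side. FKBP5 averaged 4.63 at baseline, 7.41 at 24 h and 6.36 at day 7. PER1 averaged 4.87 at baseline, 6.85 at 24 h and 5.50 at day 7. DUSP1 averaged 5.49 at baseline, 7.59 at 24 h and 5.71 at day 7. MMP1, a collagenase gene, averaged 4.33 at baseline, 8.28 at 24 h and 4.54 at day 7. These 4 genes were highest at 24 h, and of them FKBP5 alone was called at day 7. MKI67 averaged 5.04 at baseline, 4.73 at 24 h and 7.04 at day 7, and LYVE1, a hyaluronan receptor of lining macrophages and lymphatic vessels, 4.37 at baseline, 4.12 at 24 h and 7.27 at day 7. CCNA2 averaged 3.74 at baseline, 3.92 at 24 h and 6.27 at day 7, and TIMP1 6.36 at baseline, 7.33 at 24 h and 9.32 at day 7. These 4 were highest at day 7. Of the 4 largest rises, CD163 averaged 3.64 at baseline, 8.42 at 24 h and 7.91 at day 7. HMOX1 averaged 5.92 at baseline, 9.07 at 24 h and 10.08 at day 7. Both were also called at 24 h against baseline (limma, adjusted p = 0.000132 and 0.0121). SLC31A1 (adjusted p = 0.0505) and ABCA6 (adjusted p = 0.0894) were not called at 24 h. The 24 h array of horse 2, at 6.69 for MKI67 and 5.50 for LYVE1, stood above the other 24 h arrays. Between day 7 and 24 h limma called 0 probe sets (4032 with an unadjusted p under 0.05). The difference was 2.31 for MKI67 (day 7 minus 24 h, adjusted p = 0.145), 3.08 for LYVE1 (adjusted p = 0.145) and -3.94 for MMP1 (adjusted p = 0.166), so none of them was shown to differ between the 2 times.

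**Figure D4:**
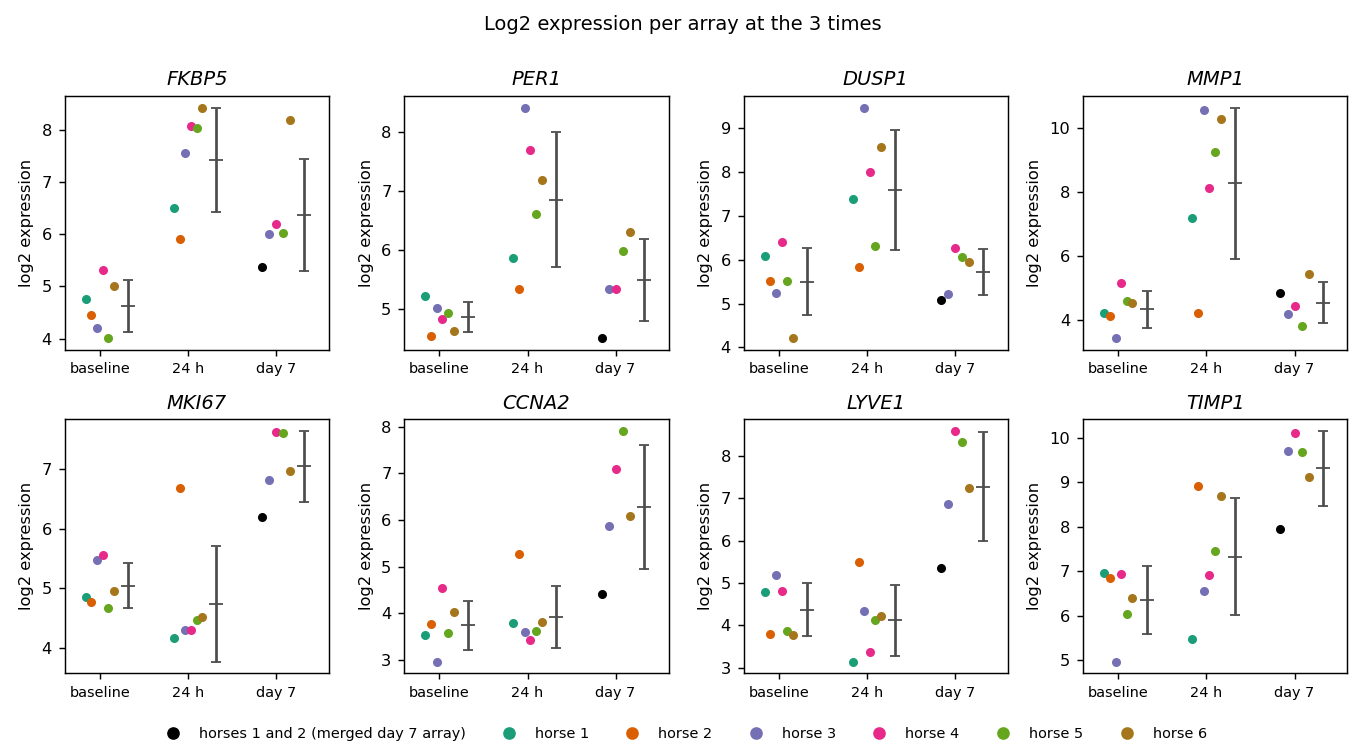
Log2 expression of 8 genes on every array at baseline (6 arrays), 24 h (6) and day 7 (5), coloured by horse, black for the merged day 7 array, with the mean and SD of each time as bars. FKBP5, PER1, DUSP1 and MMP1 have their highest mean at 24 h, and MKI67, CCNA2, LYVE1 and TIMP1 at day 7.

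Inflammatory cytokines and chemokines were mostly not called. Of 22 measured members 1 rose, TNF, and 2 fell, TNFSF11, the ligand that drives osteoclast formation (-0.62 ± 0.20), and CXCL6, a chemokine for neutrophils (-0.77 ± 0.27). The median was -0.23 as deposited, -0.14 without the day 7 array of horse 3 and -0.01 after quantile normalization, where 0 rose and 1 fell. TNF, a leading cytokine of joint inflammation, read 4.81, 6.50, 5.53, 5.17 and 5.01 at day 7, against 3.42 to 4.76 (median 3.96) at baseline, a change of 1.29 ± 0.40 (log2, SE, adjusted p = 0.0317). The groups stood just apart, and the TNF call was lost after quantile normalization (adjusted p = 0.0868) and in 10 of 18 fits that leave out a horse or array. Those were the fits without horses 1, 3, 4 and 5, the day 7 arrays of horses 3, 4 and 5 and the baseline arrays of horses 2, 3 and 4 (adjusted p up to 0.106). TNFSF11 lost its call in 13 and CXCL6 in 14 of these fits, those without horses 3, 4, 5 and 6 among them for both. IL6 (-0.38 ± 0.21), CXCL8, a chemokine for neutrophils (0.54 ± 0.33), IL10 (0.30 ± 0.25) and IL1RN, the natural antagonist of interleukin 1 (0.75 ± 0.51), were not called. IL1B and CCL2 had no probe set with their symbol alone.

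Genes that sense microbes and damage rose in part. NF-kB pathway and interferon-stimulated genes were called higher about as often as all genes (18%). Of 23 measured toll-like receptor and inflammasome genes 11 rose and 0 fell, with a median of 0.68. MYD88, the adaptor of most toll-like receptors, read 6.99, 8.21, 8.81, 8.47 and 7.87 at day 7, against 4.85 to 7.30 (median 5.78) at baseline, a change of 2.12 ± 0.37 (log2, SE, adjusted p = 0.00567), with the merged array inside the baseline range. TLR8, a sensor of RNA in endosomes, read 5.38, 6.18, 6.91, 7.55 and 5.95 at day 7, against 3.19 to 4.98 (median 4.02) at baseline, a change of 2.36 ± 0.42 (adjusted p = 0.0059) without overlap. TLR4, the sensor of bacterial endotoxin, rose by 1.62 ± 0.39 and TLR9, a sensor of DNA, by 0.91 ± 0.23. TLR2 (0.66) and NLRP3 (0.57) were not called. The count was 5 after quantile normalization and lowest, at 2, without horse 5 or its day 7 array. Of 23 NF-kB pathway genes 5 rose, NFKB1 (1.56 ± 0.31), the kinase IKBKB (1.23 ± 0.25), the inhibitor NFKBIB (1.27 ± 0.29), MAP3K7 (0.82 ± 0.24) and CYLD (1.10), with a median of 0.20, and 2 rose without horse 3 or horse 5. After quantile normalization 2 rose and 1 fell, with a median of 0.04, and without the baseline array of horse 2 the median was 0.13. Of 23 interferon-stimulated genes 5 rose, STAT2 (1.37 ± 0.27), IFI44 (1.02 ± 0.28), BST2 (0.80 ± 0.23), MX1 (0.92 ± 0.27) and MX2 (1.57), with a median of 0.39. In 6 leave-out fits, those without horse 3, 4 or 5 or their day 7 arrays, 1 was called, and after quantile normalization 2 rose and 1 fell. The median was 0.19 without the day 7 array of horse 5 and 0.21 without horse 5.

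Several complement receptors rose, and most components were not called. Of 21 measured members 8 rose and 0 fell, with a median of 0.32. C3AR1, the receptor for the fragment C3a, read 6.43, 7.94, 9.63, 8.76 and 8.32 at day 7, against 4.11 to 6.40 (median 4.43) at baseline, a change of 3.36 ± 0.50 (log2, SE, adjusted p = 0.00333); the groups stood just apart, with baseline horse 4 far above the other baseline arrays. ITGAX (1.78 ± 0.30) and ITGAM (1.88 ± 0.38), the chains that mark complement receptors 4 and 3, and CFP, which encodes properdin, the stabiliser of the alternative pathway (1.88 ± 0.37), rose as well. The subunits of C1q, C1QA (0.62), C1QB (0.44) and C1QC (-0.01), and the regulator CLU (-1.11) were not called. The count was 6 both after quantile normalization and at its lowest when a horse or array was left out. The median depended on single libraries: it was 0.10 without horse 6, 0.71 without the merged array, 0.11 with the horse 6 baseline array left out and 0.49 with that of horse 1 left out, and after quantile normalization it was 0.06.

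Of 23 measured anti-inflammatory mediators 8 rose and 0 fell, with a median of 0.55. LGALS3, the galectin of activated macrophages, read 6.60, 6.60, 7.83, 7.89 and 7.69 at day 7, against 3.36 to 4.64 (median 4.13) at baseline, a change of 3.20 ± 0.34 (log2, SE, adjusted p = 0.00109) without overlap. ANXA2, a membrane-binding annexin, rose by 2.75 ± 0.63, and was not called without horse 5 (adjusted p = 0.0532). The count was 6 after quantile normalization and lowest, at 4, without horse 5, and the median was 0.35 without horse 6 and 0.36 without its baseline array. Of 24 genes of prostaglandin and leukotriene metabolism 3 rose, TBXAS1, thromboxane synthase (1.73 ± 0.45), LTA4H, which makes leukotriene B4 (1.33 ± 0.39), and ALOX5 (0.76), which opens leukotriene synthesis. PTGFR, a prostaglandin receptor (-0.85 ± 0.23), and LTC4S, the enzyme of cysteinyl leukotrienes (-0.79 ± 0.27), fell, and the list's median was -0.09. PTGS2, the inducible cyclooxygenase, was at -0.47 ± 0.21 (adjusted p = 0.0987), below its own baseline on 5 of 5 arrays. Without horse 5, 0 of these 24 genes were called in either direction (limma), and after quantile normalization 1 was called higher.

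Immediate early factors and apoptosis genes were mostly not called. Of 20 measured immediate early factors 2 rose, EGR1 (2.03 ± 0.39, adjusted p = 0.00738) and FOS (1.15 ± 0.39, adjusted p = 0.0434), both transcription factors that cells make within minutes of a stimulus. EGR1 was called in all 18 leave-out fits, and FOS lost its call in 15 of them (adjusted p up to 0.174), and 1 factor was called without, among others, horse 3, 4, 5 or 6. Of 18 apoptosis genes 3 rose, APAF1 (0.98 ± 0.28), XIAP (1.19 ± 0.39) and BID (0.97 ± 0.32), and 1 fell, FASLG (-0.88 ± 0.25), the death ligand of cytotoxic lymphocytes. The 2 medians were 0.19 and 0.11. After quantile normalization 1 factor rose and 1 fell, and 1 apoptosis gene rose. Without horse 3, 4 or 5, among others, 0 of the apoptosis genes were called in either direction (limma).

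Matrix genes were a main interest of the study, as its title states. Of 28 measured matrix proteases and inhibitors 9 rose and 0 fell, with a median of 0.02. That median lay between -0.11 (without the baseline array of horse 3) and 0.11 (without horse 5) when a horse or array was left out. TIMP1, a secreted inhibitor of the matrix metalloproteinases, read 7.96, 9.71, 10.12, 9.69 and 9.12 at day 7, against 4.97 to 6.97 (median 6.63) at baseline, a change of 2.94 ± 0.54 (log2, SE, adjusted p = 0.00627), or 7.66-fold, without overlap. TIMP2, of the same family, rose by 1.96 ± 0.39 (adjusted p = 0.00791), also without overlap. The membrane sheddase genes ADAM17 (1.83 ± 0.37), which releases TNF, and ADAM9 (2.47 ± 0.53) rose with the merged array inside the baseline range. TIMP3 (-0.70 ± 0.45), the collagenase genes MMP1 (0.00 ± 0.75) and MMP13 (-0.60 ± 0.26), MMP3, stromelysin 1 (0.09 ± 0.29), and the aggrecanase genes ADAMTS4 (-0.53 ± 0.29) and ADAMTS5 (-0.33 ± 0.24) were not called. The signs of MMP1, MMP3, MMP13 and ADAMTS5 turned under some alternatives. The count of rises was 5 after quantile normalization and lowest, at 4, without horse 4 or 5 or their day 7 arrays.

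Of 35 measured structural matrix genes 1 rose and 4 fell, with a median of -0.37. VCAN, the large proteoglycan versican, which macrophages also make, read 6.73, 8.05, 8.33, 7.90 and 8.35 at day 7, against 4.95 to 7.45 (median 5.58) at baseline, a change of 1.94 ± 0.41 (log2, SE, adjusted p = 0.00928) with overlap by the merged array. The falls were those of the collagen genes COL5A1 (-0.89 ± 0.23), COL9A2 (-0.87 ± 0.24), COL6A2 (-0.99 ± 0.30) and COL4A2 (-0.76), and 0 of these falls were called without horse 5 or without the day 7 arrays of horses 3 or 5 (limma). Of the cartilage genes, ACAN, the aggrecan gene (-0.34 ± 0.22), COL2A1, of cartilage collagen (-0.47 ± 0.27), and COMP (-0.52 ± 0.28) were not called. No probe set carried the symbol of PRG4, which encodes lubricin, alone. Of 12 genes of hyaluronan 4 rose, LYVE1, TNFAIP6, CD44 and HYAL2 (0.72), and 1 fell, CEMIP (-0.82 ± 0.25), which takes part in hyaluronan breakdown. LYVE1 read 5.35, 6.87, 8.58, 8.31 and 7.23 at day 7, against 3.78 to 5.19 (median 4.33) at baseline, a change of 2.83 ± 0.55 (adjusted p = 0.00752) without overlap. TNFAIP6, which links hyaluronan to other proteins, rose by 1.80 ± 0.42, and CD44, the main hyaluronan receptor of leukocytes, by 1.08 ± 0.25. HAS2 (-0.42) and HAS3 (-0.53), which make hyaluronan, were not called. After quantile normalization 2 of these genes rose, and 2 without horse 4 or horse 5, while the fall of CEMIP was not called in 11 of the 18 fits that leave out a horse or array, among them those without horses 1, 3, 5 and 6.

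The largest falls were in microRNA genes, which encode short RNAs that repress messenger RNAs. MIR328 read 8.08, 7.05, 5.46, 6.00 and 6.63 at day 7, against 9.35 to 10.89 (median 10.56) at baseline, a change of -3.69 ± 0.54 (log2, SE, adjusted p = 0.00326), or 12.9-fold lower, and it was the 1 gene called with a fall of over 4-fold. MIR187 read 3.84, 2.73, 3.32, 3.72 and 3.97 at day 7, against 4.65 to 6.16 (median 5.49) at baseline, a change of -1.89 ± 0.32 (adjusted p = 0.00523). MIRLET7G read 5.06, 4.35, 4.63, 4.21 and 4.65 at day 7, against 5.89 to 7.27 (median 6.28) at baseline, a change of -1.81 ± 0.30 (adjusted p = 0.00477). The groups stood apart in all 3, as they did in MIR218-2 (-1.87 ± 0.36) and MIR424 (-1.60 ± 0.26). As a family, chosen after its values were seen, 10 of 318 microRNA genes were called higher and 110 lower (34.6%, against 8.43% of all genes), with a median of -0.55. Of these 318 genes 197 lie in the dimmest class, whose median was -0.44, and after quantile normalization 5 were called higher and 19 lower with a median of -0.20. Olfactory receptor genes, a family also chosen after its values were seen and not known for a role in joint fluid, had 2 of 668 called higher and 44 lower (6.59%), with a median of -0.15. The probe sets read total RNA labelled for a gene array, and whether they measure the precursor or its host transcript is not given in the sources used here.

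Of the other 10 of the 15 largest falls, GZMB and CXCR2 mark cell types and are given with them. LOC100050557, which the table names by its locus alone, read 2.21, 1.75, 2.13, 2.17 and 2.23 at day 7, against 3.14 to 4.21 (median 3.80) at baseline, a change of -1.62 ± 0.22 (log2, SE, adjusted p = 0.00219). LOC100050557 and MIR424 lie in the dimmest class, where 420 of 2070 genes were called lower and 1 higher. After quantile normalization each changed by -1.27. RAB42, a Rab of little known function, read 4.43, 4.02, 3.85, 3.83 and 3.78 at day 7, against 4.63 to 6.14 (median 5.53) at baseline, a change of -1.54 ± 0.26 (adjusted p = 0.00534), while 18 of the 31 listed Rab genes rose. CTU1, an enzyme that modifies transfer RNA, changed by -1.64 ± 0.36, GDF7, a growth factor of the BMP family, by -1.49 ± 0.29, and APCDD1L by -1.47 ± 0.29. Of these 5 genes only CTU1 had overlapping groups. The largest falls were picked in the same way as the largest rises, and 3.73% of all genes were lower without overlap. ZEB1, a transcription factor known from mesenchymal cells and lymphocytes, changed by -1.58 ± 0.40 (adjusted p = 0.0168), with baseline horse 1 at 8.96; it was not called without horse 3, horse 5 or the day 7 array of horse 5 (adjusted p up to 0.0673). LOC100064176 (-1.55 ± 0.34) was not called without horse 3 (adjusted p = 0.0514), and CLIC5, a marker of lining fibroblasts (-1.54 ± 0.35), without horse 5 (adjusted p = 0.0546).

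Some markers of cytotoxic and T lymphocytes fell. Of 17 measured NK or cytotoxic cell markers 0 rose and 4 fell, GZMB, PRF1, FASLG and XCL1 (-0.70 ± 0.24), with a median of -0.67, and the mean level per array lay between 3.68 and 4.33 at day 7, against 4.36 to 5.33 at baseline. GZMB, which encodes granzyme B, a protease that cytotoxic cells inject into their targets, read 6.00, 5.15, 4.25, 4.75 and 5.32 at day 7, against 6.49 to 7.39 (median 6.70) at baseline, a change of -1.70 ± 0.27 (log2, SE, adjusted p = 0.00448). PRF1, the pore former perforin, read 5.55, 6.00, 5.57, 5.84 and 6.06 at day 7, against 6.52 to 7.29 (median 6.75) at baseline, a change of -1.03 ± 0.23 (adjusted p = 0.0112). Both stood apart from baseline on every array. Of 22 T cell markers 0 rose and 5 fell, ZAP70, CD6 (-0.84 ± 0.25), LAT (-0.94 ± 0.29), CTLA4 (-0.83 ± 0.28) and LCK (-0.64), with a median of -0.51. ZAP70, a kinase of the T cell receptor, read 4.20, 4.33, 4.01, 4.09 and 4.20 at day 7, against 4.76 to 5.98 (median 5.82) at baseline, a change of -1.39 ± 0.25 (adjusted p = 0.00579) without overlap. Of the receptor complex itself, CD3D (0.45), CD3E (-0.12), CD3G (-0.39) and CD247 (-0.72) were not called, nor were CD4 (0.58) and CD8A (-0.59). The mean level of T cell markers per array overlapped, between 4.82 and 5.24 at day 7 and 4.70 and 6.40 at baseline. Counts of falls after quantile normalization were 3 and 5. The T cell median was -0.31 without horse 4, -0.32 without its baseline array and -0.34 without horse 5. With a horse or array left out the cytotoxic count lay between 2 and 7 and the T cell count between 1 and 8, highest without the baseline array of horse 1 and lowest, among others, without horse 4 or horse 5 (2 and 1).

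Among the other cell types few markers were called. Of 13 neutrophil markers 1 rose, TREM1, and 1 fell, CXCR2, with a median of -0.37. CXCR2, the receptor that brings neutrophils to CXCL8, read 3.53, 3.31, 3.20, 3.38 and 3.36 at day 7, against 4.39 to 5.57 (median 4.90) at baseline, a change of -1.58 ± 0.28 (log2, SE, adjusted p = 0.00567) without overlap. TREM1, which amplifies inflammatory signals in myeloid cells, changed by 2.10 ± 0.59 (adjusted p = 0.023) with overlap, and its call was lost in 9 of 18 leave-out fits, those without horse 3, 5 or 6 or any day 7 or baseline array of these 3 horses. CSF3R (-1.75), S100A8 (-0.22) and S100A9 (-0.37) were not called. Of 13 B or plasma cell markers 1 rose, SDC1 (1.20 ± 0.35), which other cells make too, and 2 fell, CD79B (-1.47 ± 0.42) and the kinase BLK (-0.78 ± 0.23), with a median of -0.51. Without horse 4, 5 or 6, among others, none of these 3 was called. The list's median was -0.33 without horse 4 and -0.29 without its baseline array. Of 15 dendritic cell and MHC class II genes 5 rose, ITGAX, CD83 (1.19 ± 0.31), FLT3 (0.95 ± 0.26), CD1C (1.40 ± 0.38) and LAMP3 (1.44), with a median of 0.83. The count of these 5 was 2 after quantile normalization and 1 without horse 4 or without the day 7 array of horse 3, where the list's median was 0.54 without that array.

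Few markers of the tissues around the joint space were called. Of 14 synovial fibroblast markers 0 rose and 1 fell (CLIC5), with a median of -0.34. Of 16 chondrocyte markers 0 rose and 1 fell, SOX9, the transcription factor of chondrocytes (-0.90 ± 0.28), with a median of -0.39 and a mean level per array of 3.33 to 4.19 at day 7, against 3.84 to 4.32 at baseline. No detection calls came with the values, so whether such a marker was present at all was not tested. Of 14 endothelial markers 1 rose and 2 fell, ERG (-1.28 ± 0.43) and EMCN (-0.61 ± 0.20). The riser was ENG, endoglin, a TGF-beta co-receptor that activated macrophages make too. It read 7.24, 8.09, 8.99, 8.69 and 7.92 at day 7, against 3.75 to 5.69 (median 5.12) at baseline, a change of 3.15 ± 0.54 (log2, SE, adjusted p = 0.00534) without overlap, while PECAM1 (0.13), VWF (-0.33) and CDH5 (-0.33) were not called. Red cell markers had 0 of 7 called, with HBB, a haemoglobin chain, at -0.70 ± 0.36 (adjusted p = 0.144) and ALAS2, which starts haem synthesis in red cells, at -0.47 ± 0.29 (adjusted p = 0.215); without the merged array 1 red cell marker was called lower. Platelet markers had 1 of 7 called, TUBB1 (-1.26 ± 0.31), and mast cell, basophil or eosinophil markers 1 of 9, GATA2 (-0.80 ± 0.26), both lower. The calls of SOX9, ERG, EMCN, TUBB1 and GATA2 were lost without horse 3, and those of CLIC5, SOX9, ERG, EMCN and GATA2 without horse 5.

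The 5 day 7 arrays differed among themselves in how strongly the lists moved. The median change of lysosomal genes was 0.93 on the merged array and 2.27, 2.02, 3.05 and 2.62 for horses 3 to 6, and that of proton pump subunits 0.54 and 1.77, 1.77, 2.60 and 1.96. Replication and mitosis genes moved by 0.36 on the merged array and by 1.24, 1.52, 1.97 and 0.69 for horses 3 to 6, so horse 6 stood low here and horse 5 high. Cholesterol synthesis ranked differently, at 0.39 on the merged array and 2.20, 1.55, 1.40 and 0.41 for horses 3 to 6. Lymphocyte markers split by horse: T cell markers moved by -0.41 on the merged array, 0.07, -1.73, -0.93 and 0.18 in horses 3 to 6, and NK or cytotoxic markers by -0.27, -0.41, -1.77, -0.68 and -0.45. The T cell median was below 0 on the merged array and in horses 4 and 5 and above 0 in horses 3 and 6, while the cytotoxic median was below 0 on all 5 arrays. Lysosomal, macrophage and mitotic medians were above 0 on all 5.

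**Figure D5:**
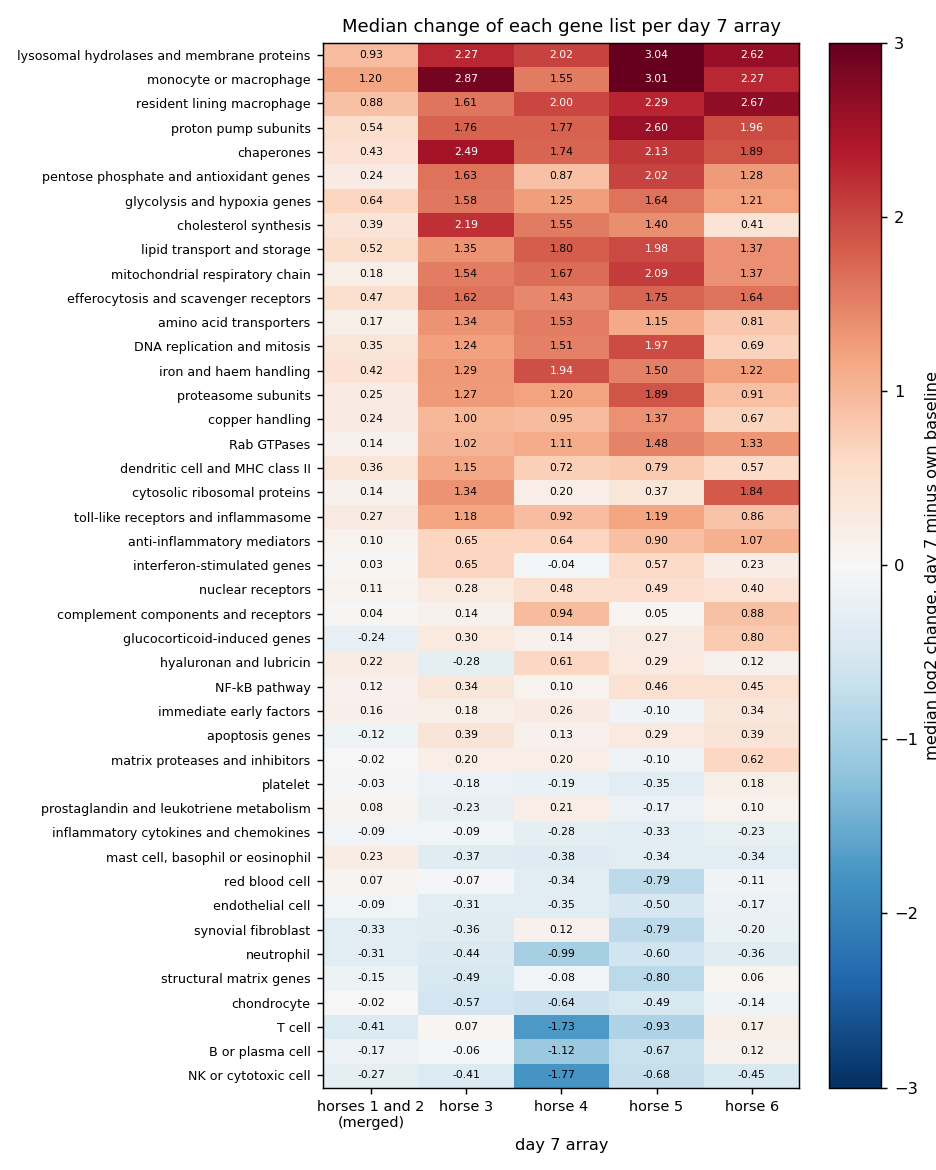
Median log2 change of each gene list (rows) on each of the 5 day 7 arrays (columns), each array minus its own baseline and the merged array minus the mean of both horses' baseline, with red for higher and blue for lower. The merged array has the palest column, from 1.20 for macrophage markers down to -0.41 for T cell markers, and horse 4 has the lowest T cell (-1.73) and cytotoxic (-1.77) medians.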

How the data were processed

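Synovial fluid RNA of 6 horses was hybridised to Affymetrix equine gene arrays at baseline, 24 h and day 7. The values are the log2 expression values that the authors deposited, 1 column per sample. Per the submitters' processing notes, Transcriptome Analysis Console 3.0, RMA and Affymetrix Expression Console were used; the genome build is not given in the sources used here. Fluid of 200 µl was extracted and RNA with an integrity number of at least 8 was used, per the labels' protocols.

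All 30559 probe sets were fitted with limma 3.58.1 in R 4.3.3 on 17 arrays, with time and horse as terms and the merged day 7 array given 0.5 to each of horses 1 and 2. P-values were adjusted by Benjamini-Hochberg over the whole array, with a threshold of 0.05. A fitted change is within horses, so it need not equal the gap between both groups' means. A gene stands for the probe set with the highest mean among those with exactly 1 symbol in the platform annotation. Figures were drawn with Python 3.11.15 and matplotlib 3.10.9, and the fits were tested on simulated data.

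The pairing comes from the horse names in the labels. After the group means were removed, the correlation between 2 arrays of 1 horse had a median of -0.02 over 18 pairs, against -0.00 over 78 pairs from different horses.

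The text names the 15 largest rises and the 15 largest falls among called genes with the same sign on all 5 day 7 arrays, up to 4 called members per list (2 where none was called) by the smallest p, and a set of followed genes, 173 genes in all. The members, the 43 lists and the followed genes were chosen with earlier results of these data known. Alternatives changed the block, the normalization, the filter on dim probe sets, the call rule, the treatment of the merged array and the arrays left out. Saline-injected joints were not analysed here.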

Additional observations from a re-analysis of the deposited data

Results flagged for a closer look

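In 21 of 346 groups of arrays tested, 1 for each named gene and time, the highest or lowest array lay so far from its nearest neighbour, relative to the range of the group, that it passed the critical value of Dixon's test. Chance gives such a flag in about 1 of 20 groups. All values are log2 expression. The merged day 7 array stood far below the other day 7 arrays at 6.86 for TIMD4 (nearest array 8.60), 7.38 for LDHA (nearest array 8.80), 5.07 for UQCRFS1 (nearest array 6.44), 5.93 for COX5B (nearest array 7.41), 6.12 for TIMP2 (nearest array 7.30), 6.73 for VCAN (nearest array 7.90) and 6.06 for TREM1 (nearest array 8.02). The day 7 array of horse 3 stood far below the other day 7 arrays at 1.75 for LOC100050557 (nearest array 2.13). The day 7 array of horse 6 stood far above the other day 7 arrays at 2.13 for MIR424 (nearest array 1.88). The merged day 7 array stood far above the other day 7 arrays at 3.26 for IL6 (nearest array 2.66).

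The baseline array of horse 4 stood far above the other baseline arrays at 6.40 for C3AR1 (nearest array 4.93), 8.02 for CTSB (nearest array 6.71), 7.50 for TIMD4 (nearest array 5.04), 4.93 for ATP7A (nearest array 3.78), 4.58 for PSMA1 (nearest array 3.73), 4.79 for LTA4H (nearest array 3.85) and 6.18 for IL1RN (nearest array 4.78). The baseline array of horse 1 stood far above the other baseline arrays at 8.96 for ZEB1 (nearest array 6.02) and 8.87 for ERG (nearest array 5.54). The baseline array of horse 2 stood far below the other baseline arrays at 3.72 for SLC38A7 (nearest array 4.77). The baseline array of horse 6 stood far below the other baseline arrays at 3.75 for ENG (nearest array 4.98).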

How the results depend on the processing

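The count of called probe sets was 8343, with 3007 genes higher and 1405 lower. Without the replicate block for horse it was 9227, which moved no count by over 1.5 times; ZBTB16 then stood at 0.011. When a horse or array was left out the counts ran 1761 to 10934 for probe sets, 580 to 3712 for genes higher and 165 to 1973 for genes lower. Over these fits, apart from the one without the merged array, the change ran -0.2758 to 0.4351 for DUSP1, -0.4278 to 0.4872 for MMP1, -0.0418 to 0.3747 for MMP3, -0.4257 to 0.141 for TSC22D3 and -0.266 to 0.2173 for ZBTB16. Quantile normalization left 2858 probe sets with 1304 genes higher and 413 lower, and raised the share of called probe sets that were higher to 56.4%, against 43.7% as deposited; the median of all genes was then 0.08, DUSP1 -0.2026, IL6 0.0364 and immediate early factors -0.0094. Median centring left 6447 probe sets with 625 genes lower, a share of 60.2% higher and a median of all genes of 0.11, with TSC22D3 at 0.0317 and ZBTB16 at 0.1499. Fewer probe sets were tested without the dimmest of the 4 brightness classes (5090 called, 801 genes lower, 65.3% higher) and without the dimmest 2 (4295 called, 440 genes lower, 76.5% higher, cytokines and chemokines at 0.0537). With only day 7 and baseline arrays 635 genes were lower and ZBTB16 stood at 0.0431; with horse as a random effect ZBTB16 was 0.0011. Array weights, whose estimation stopped short of convergence, gave 13636 probe sets and 2984 genes lower, MMP1 -0.3515 and MMP3 -0.1199. An unadjusted p under 0.05 with a 2-fold change called 5556 probe sets and 267 genes lower, and an adjusted p under 0.01 called 1176 probe sets, 515 genes higher and 74 lower. Both day 7 columns kept gave ZBTB16 0.0583, the merged array given to horse 1 MMP1 -0.2243, and given to horse 2 896 genes lower and ZBTB16 0.0528; left out, MMP1 was -0.5558 and MMP3 -0.1158. The causes of these moves were not tested.

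The SD of each array as a covariate left 0 probe sets called by limma, 0 genes higher and 0 lower (1926 probe sets with an unadjusted p under 0.05). Changes then turned to -0.1597 for LDHA, -0.1768 for CPM, -1.0271 for SOD1, -0.1222 for SREBF2, -0.7943 for INSIG1, -0.0454 for COX5B, -0.2854 for PSMA1, -0.253 for PSMD1, -0.1352 for CCT7, -0.2079 for CCT4, 0.2894 for CXCL6, -0.4948 for ANXA2, -0.0472 for NFKBIB, -0.0252 for TBXAS1, -0.1483 for LTA4H, -0.3484 for ADAM9, -0.0856 for CD44, -0.3839 for XIAP, -0.0965 for BID, 0.1952 for CTLA4, 0.2397 for XCL1, 0.4144 for HBB, 0.6416 for ALAS2, 0.1812 for TSC22D3, -0.447 for DUSP1, 0.8521 for ZBTB16, -0.2303 for KLF9, -0.7809 for NR3C1, 0.2703 for IL6, 0.0953 for PTGS2, -0.287 for IL10, -0.8114 for IL1RN, 0.4917 for MMP13, 0.2754 for ADAMTS5 and 0.4437 for COL2A1, and list medians to -0.0786 for cholesterol synthesis, -0.2317 for mitochondrial respiratory chain, -0.238 for proteasome subunits, -0.2253 for chaperones, -0.2208 for NF-kB pathway, -0.1209 for toll-like receptors and inflammasome, -0.0046 for interferon-stimulated genes, 0.017 for structural matrix genes, -0.0222 for nuclear receptors, -0.1154 for Rab GTPases, 0.2237 for neutrophil and 0.2626 for chondrocyte. Some list medians within the SD of their values over the 5 day 7 arrays turned too. They stood at -0.751 for cytosolic ribosomal proteins, -0.2425 for apoptosis genes, 0.041 for prostaglandin and leukotriene metabolism, 0.1323 for mast cell, basophil or eosinophil, 0.4144 for red blood cell and 0.2103 for platelet. Of 151 named genes called, 94 kept the call after quantile normalization and in all 18 fits that leave out a horse or array. Many of these named genes were picked for a large change or a small p, so the 94 of 151 do not describe all calls. Of the 8343 called probe sets, 2646 stayed called after quantile normalization and 1745 without horse 5. The array SD moves with the time, no detection calls came with the values, and 5 arrays at day 7 set the precision.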
